A study of Sus scrofa with 50 samples.

Results

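Lung was compared with heart, kidney, liver and spleen in 10 Korean minipigs, a small pig breed. The 10 libraries labelled as lung, of 50 in all, were taken whatever the type of the animal. Of the other libraries, 10 of heart, 9 of kidney, 10 of liver and 10 of spleen entered the comparison, so that 49 libraries were used. The kidney library of S0235 was left out, because it held 553 TPM of CD3E (a T cell receptor chain) and 0.179 TPM of UROM (uromodulin, a kidney tubule protein), which was at 229.6 TPM or more in each of the 9 kidneys used. With it kept, and at a limma adjusted p below 0.05 and a log2 difference of at least 1, 3925 entries and unmatched transcripts in place of 3837 were higher in lung than in each tissue, 21 in place of 24 were lower, and 6819 and 2663 in place of 7340 and 3067 were higher and lower than in kidney. The animals were of the ET type (S0235, S0242, S0276, S0309 and S0326) or of the L type (S0349, S0355, S0377, S0384 and S0385), with 5 animals of each, and every animal gave 1 library per tissue. The labels do not spell out ET and L and name no treatment; age and sex are not given in the sources used here. Expression was given as TPM, a share of all transcripts corrected for transcript length, which allows levels of different genes to be set side by side. TPM was summed over assembled transcripts with the same best match in Swiss-Prot, and each such entry is called a gene here and is written with its Swiss-Prot short name. Transcripts with no match were kept singly, and entries and unmatched transcripts together are called features.

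The lung exchanges gas across an alveolar surface made of thin type 1 cells, with type 2 cells that secrete surfactant, a film of lipid and protein that lowers surface tension and binds microbes. The airways that lead to the alveoli are lined by secretory cells, whose products form the mucous layer, and by ciliated cells, whose beating moves that layer towards the throat; basal cells renew both. Beneath the epithelium lie a dense capillary bed, elastic fibres and resident macrophages, and a tissue piece cut from the lung can hold all of these, together with bronchial muscle, cartilage and blood.

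The lung label was set beside 5 genes of the lung epithelium, each of which stood at a high level in every lung library. They were chosen with earlier results of these data known, so their levels are a description and no independent check. UTER (uteroglobin, the main secreted protein of airway club cells) ranged from 2832 to 46154 TPM over the 10 lung libraries, with a median of 13028. Its mean was 1.08 TPM ± 0.274 (SD, n = 10) in heart, 1.86 ± 0.738 (SD, n = 9) in kidney, 0.968 ± 0.171 (SD, n = 10) in liver and 0.986 ± 0.372 (SD, n = 10) in spleen. No library of another tissue exceeded 3.47 TPM, so the groups were far apart. On the log2(TPM + 1) scale the lung level was 12.69 ± 0.21 (SE) above the mean of the 4 other tissues, the largest such difference of any entry called higher than in each of them, though not under every setting. In L-type animals alone it was 11.92 for UTER and 12.90 for PSPC, and with a pseudocount of 0.1 it was 13.51 for UTER, 14.05 for PSPC and 13.80 for PSPB. With bulk tissue, fewer cells of a type and less RNA per cell cannot be told apart in this or any other result given here.

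PSPC (surfactant protein C, made by type 2 cells) ranged from 377.3 to 17806 TPM in lung, with a median of 3399, and its highest value in any other library was 0.662 TPM. PSPB (surfactant protein B, needed to form the surfactant film) was steadier among the lungs, at 1313 to 4075 TPM with a median of 2102, against at most 0.266 TPM elsewhere. SFTPA (surfactant protein A, a collectin that binds microbes) reached 1125 to 5761 TPM in lung, with a median of 2929. The groups did not overlap for any of these, although SFTPA was also present in liver, where it averaged 19.7 TPM ± 22.3 (SD, n = 10) and reached 71 TPM in 1 library. The lung differences from the mean of the other tissues were 11.70 ± 0.26 for PSPC, 11.04 ± 0.10 for PSPB and 10.41 ± 0.24 for SFTPA (log2 ± SE).

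CBR2 (carbonyl reductase 2, a mitochondrial enzyme known from the lung of pig and mouse) was shared with liver. In lung it ranged from 12998 to 41706 TPM, with a median of 16887. In liver it ranged from 114 to 8543 TPM, with a median of 3061, while heart, kidney and spleen averaged 1.17, 4.68 and 1.29 TPM. Every lung library was above every liver library, and the log2 difference was 3.60 ± 0.54 (SE) against liver but 13.14 ± 0.54 against heart. The plot of the epithelial genes by library shows these levels.

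**Figure D1:**
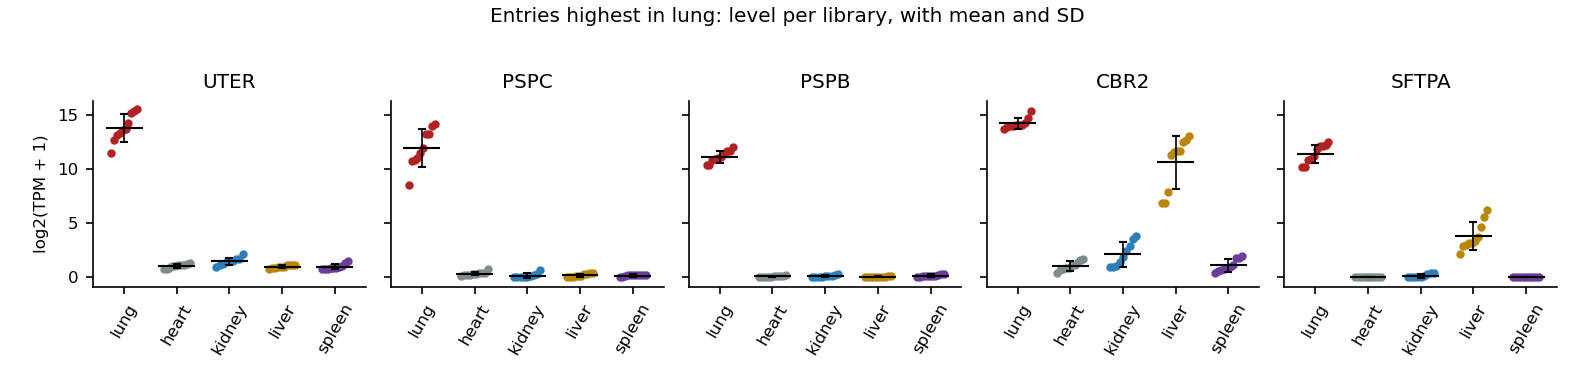
Expression of the 5 defining genes as log2(TPM + 1), with 1 panel per gene, 1 point per library and the mean and SD of each tissue in black (lung, heart, liver and spleen n = 10, kidney n = 9). All lung points stand above all others, and liver comes closest, with CBR2 at up to 8543 TPM.

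More features were found at 1 TPM or more in lung than in the other tissues, and fewer of the transcripts came from the most abundant ones. The number of features at 1 TPM or more was 27618 ± 767 (SD, n = 10) in lung, against 20087 ± 1325 in heart, 25071 ± 1339 in kidney, 20099 ± 1103 in liver and 22555 ± 2328 in spleen, and it was higher in lung in each animal (exact paired permutation test, 2-sided, p = 0.00195 for 10 pairs and 0.00391 for the 9 kidney pairs, the smallest these numbers allow). Among entries alone, a count added after the data were seen, it was 12936 ± 175 (SD, n = 10) in lung, against 11231 in heart, 12283 in kidney, 10814.5 in liver and 12006 in spleen, again higher in lung in each animal (same exact test, p = 0.00195 and 0.00391). The 10 most abundant features took 14.5% ± 4.003 (SD, n = 10) of the TPM in lung but 43.8% in heart, 33.7% in kidney, 28.0% in liver and 26.6% in spleen. TPM is a share, so a tissue dominated by few genes shows lower values of the rest. Read counts were not used here, so the depth of the libraries is unknown.

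A mean of 1 TPM or more in some tissue was reached by 32855 features, of which 14105 were entries and 18750 unmatched transcripts. Of these features 3837, or 11.7%, among them 2161 unmatched transcripts, were higher in lung than in each of the 4 others, and 24, or 0.073%, were lower than in each. Tests were made on log2(TPM + 1), which understates the change of genes with low values. A call needed a limma adjusted p below 0.05 and a log2 difference of at least 1, and the 4 comparisons share the lung libraries. The median feature was 0.62 (log2) higher in lung than the mean of the others. When the libraries were scaled by the median ratio of their features that median was -0.02, and 2105 features (6.41%) were then called higher and 137 (0.417%) lower than in each tissue. All of those 2105, and all 24 of the lower features, were called both ways. Of the 14105 Swiss-Prot entries tested, 1676 (11.9%) were higher and 21 (0.149%) lower than in each tissue by TPM, and 885 (6.27%) and 98 (0.695%) by median-ratio scaling. In 1043 of the 1676 entries, every lung library lay above every library of the other tissues.

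The other tissues differed in how much they shared with lung. Against heart, 6951 entries (49.3%) were higher in lung and 939 (6.66%) lower. Against liver the counts were 6931 (49.1%) and 1261 (8.94%). Kidney gave 3813 (27.0%) higher and 1195 (8.47%) lower, and spleen 3447 (24.4%) higher and 1348 (9.56%) lower. Over all features, higher calls made up 89.9% of the calls against heart by TPM but 59.0% after median-ratio scaling, 70.5% and 48.3% against kidney, 85.5% and 58.0% against liver, and 80.0% and 58.2% against spleen. As shares of all 32855 features tested, the TPM calls came to 46.5% higher and 5.2% lower against heart, 22.3% and 9.33% against kidney, 44.9% and 7.6% against liver, and 27.5% and 6.87% against spleen. After scaling these shares were 18.1% and 12.6%, 12.4% and 13.3%, 19.9% and 14.4%, and 15.3% and 11.0% in the same order. For the entries alone they were then 18.5% and 17.2%, 14.6% and 12.8%, 22.1% and 18.1%, and 14.9% and 15.8%. The side that held more of all features was therefore set by the scaling for kidney, where it flipped. By TPM, spleen was the tissue that most often kept an entry from being called higher than in each tissue. There were 950 entries called above the other 3 tissues but not above spleen, against 601 for kidney, 237 for liver and 187 for heart. Of these, 222 were called lower in lung than in spleen, 63 than in kidney, 69 than in liver and 28 than in heart. These counts were not made after scaling.

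**Figure D2:**
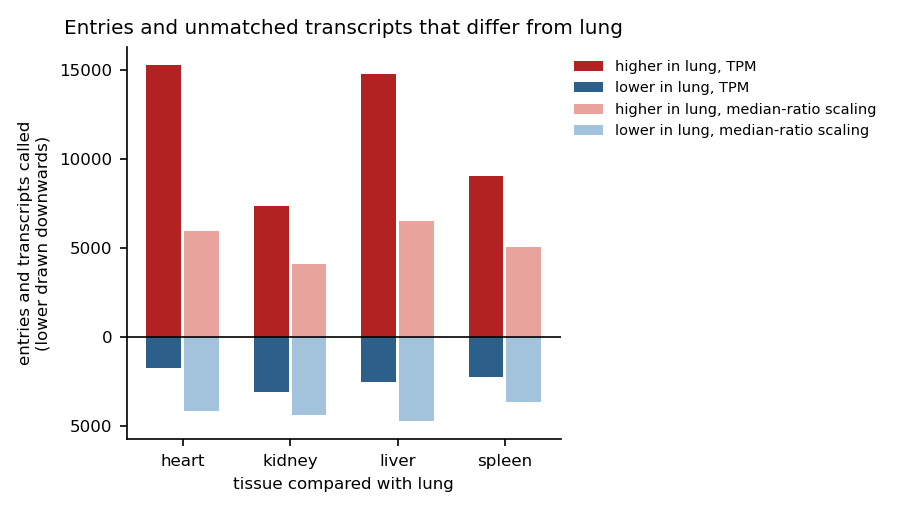
Number of features (entries and unmatched transcripts) called higher in lung (drawn upwards) and lower in lung (drawn downwards) against each other tissue, by TPM and after median-ratio scaling. By TPM the upward bars are longer for all 4 tissues, with 15267 higher and 1708 lower against heart, and after scaling kidney has 4078 higher and 4372 lower.

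Genes of type 2 cells and surfactant were mostly highest in lung. Of 15 measured members of that list, 10 were higher in lung than in each other tissue, against 11.9% of all entries, 9 of them also after median-ratio scaling, and the median difference of the list was 4.24 (log2) against 0.66 for all entries. Beside the surfactant proteins this group held SFTPD (surfactant protein D, a second collectin), with 237 to 590.4 TPM in lung, a median of 407 and at most 16.5 TPM elsewhere. NPT2B (a phosphate transporter of type 2 cells) ranged from 71.7 to 495 TPM with a median of 231, and no other library exceeded 2.45 TPM. Both groups of values were separate.

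NAPSA (napsin A, a protease that processes surfactant protein B) had 243 to 730.2 TPM in lung, a median of 429 and at most 25 TPM elsewhere, in spleen. PA21B (a secreted phospholipase A2) had 9.22 to 47.7 TPM in lung and at most 0.18 TPM in any other library. LAMP3, a membrane protein of the organelles that store surfactant, was more variable, from 1.74 to 117 TPM with a median of 18.5, and its lowest lungs lay within the spleen range of 0 to 7.55 TPM. ABCA3, the transporter that loads lipid into those organelles, overlapped with liver. It had 22.1 to 99.3 TPM in lung with a median of 40, and 11.9 to 28.3 TPM in liver, a log2 difference of 1.16 ± 0.19 (SE) that fell to 0.03 after median-ratio scaling. The list members not called in all comparisons were PCAT1, CATH, LRRK2, ETV5 and HHIP. By TPM 1 member of the list was lower in lung than in liver and 1 than in spleen, against 8.94% and 9.56% of all entries. After median-ratio scaling 1 was lower than in liver and 3 than in spleen, against 18.1% and 15.8%.

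Type 1 cell genes were higher than in each tissue in 9 of 15 measured members, with a median difference of 3.87 (log2). After median-ratio scaling 7 of them were. The shares of all entries were 11.9% by TPM and 6.27% after scaling. RAGE, a receptor on the basal side of type 1 cells, ranged from 91.5 to 911 TPM in lung with a median of 214, and the highest other library held 6.02 TPM. AQP5 (a water channel of the alveolar surface) had 15.7 to 139.9 TPM in lung, a median of 52.4 and at most 2.72 TPM elsewhere, in kidney. CLD18 (a tight junction protein whose lung form seals the alveolar lining) had 19.2 to 152 TPM in lung with a median of 50.2, and was at 0.0251 TPM or less in every other library. None of these overlapped with another tissue.

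AQP4, a second water channel, was among the most evenly expressed of the group, at 89.3 to 189 TPM with a median of 133 and 0.154 TPM at most elsewhere. RAI3, a G protein-coupled receptor of lung epithelium, had 88.2 to 356 TPM in lung with a median of 198 and at most 6.27 TPM elsewhere. HOP, a small homeodomain protein, was higher in all lungs, at 389.9 to 1256 TPM, but liver held 99.7 to 296 TPM, and its difference from liver of 2.14 ± 0.23 (log2 ± SE) became 0.97 after scaling. By TPM 1 member of the list was lower in lung than in kidney and 1 than in liver, against 8.47% and 8.94% of all entries. After scaling 3 were lower than in heart, 1 than in kidney and 1 than in liver, against 17.2%, 12.8% and 18.1%. The members not called above every tissue by TPM were limited mostly by heart. CAV1 (caveolin, the coat protein of membrane pits in type 1 and endothelial cells) had a median of 199.6 TPM in lung and 246 TPM in heart, and the groups overlapped throughout, with a log2 difference of -0.29 ± 0.33 (SE) that did not pass the test.

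Airway secretory products had the largest median difference of the lists. Of 16 measured members of that list, 15 were higher in lung than in each tissue, with a median difference of 6.73 (log2). After median-ratio scaling 12 of them were, and 12 to 15 when 1 animal was left out. The shares of all entries were 11.9% by TPM and 6.27% after scaling. The remaining member, TRFL (lactoferrin), was called lower in lung than in kidney by TPM, and was not called higher than in any tissue. TFF3 (trefoil factor 3, a small peptide secreted with mucus) ranged from 572 to 1861 TPM in lung, with a median of 1045 and at most 1.39 TPM elsewhere. SG3A1 and SG3A2, secretoglobins like UTER, had medians of 593 and 208 TPM in lung. SG3A1 spread over 53.5 to 3066 TPM among the lungs, yet no other library held more than 1.87 TPM. SG3A2 spread over 92 to 727 TPM and was listed at 0 in all heart, kidney and spleen libraries.

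BPIB1 (a secreted protein of the airway lining related to bactericidal proteins) had 37 to 342 TPM with a median of 183, against 1.92 TPM at most elsewhere. PIGR, the receptor that carries IgA and IgM across epithelia, had 32.3 to 262 TPM with a median of 177, and at most 11.5 TPM in another library. FMO2 (a flavin monooxygenase known as the lung form) had 135 to 369.8 TPM with a median of 207, and at most 19.5 TPM elsewhere, in heart. CP4B1, a cytochrome P450 of the airway, was even among the lungs at 774 to 1391 TPM with a median of 1237, while kidney ranged from 1.98 to 354 TPM and liver from 2.11 to 183 TPM. All 4 were separate from the other tissues, and the wide spread of CP4B1 lay in kidney and liver.

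Among the mucins, MUC1 and MUC5B overlapped with other tissues. MUC1, a membrane mucin, had 143 to 269.6 TPM in lung and 22 to 149.9 TPM in kidney, so that the ranges overlapped at their ends, and it passed with a log2 difference from kidney of 1.80 ± 0.26 (SE). MUC5B, a gel-forming mucin of the airways, had a median of only 5.04 TPM in lung, with 1 library at 72.4 TPM, and overlapped with liver. Its call was lost after median-ratio scaling, where the difference from liver was 0.26 (log2), and when S0309 or S0377 was left out. AGR2 and CP2F1 also lost their calls after scaling.

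Ciliated cell genes were higher in lung almost throughout. Of 17 measured members, 16 were higher in lung than in each other tissue, and the median difference was 5.58 (log2). A count of 16 was also found after median-ratio scaling and with any 1 animal left out. The shares of all entries were 11.9% by TPM and 6.27% after scaling. FOXJ1, the transcription factor that directs the formation of motile cilia, had 159 to 439.8 TPM in lung with a median of 287. Kidney came next, at 5.47 to 49.7 TPM, and heart, liver and spleen averaged 0.415, 0.181 and 1.04 TPM. The lung and kidney values did not meet, and the log2 difference was 4.09 ± 0.24 (SE).

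DNAI2, an intermediate chain of the dynein arms that bend the cilium, had 24.8 to 122 TPM in lung with a median of 77.3 and at most 1.15 TPM elsewhere. HYDIN, a protein of the central pair of microtubules, had 21.9 to 83.7 TPM with a median of 51.9 and at most 0.528 TPM elsewhere. CCD39, which with CCD40 sets the spacing along the axoneme, was the exception: it had a median of 40.9 TPM in lung and 22.9 TPM in kidney, and their log2 difference of 0.80 ± 0.28 (SE) was below 1. CCD40 itself was separate, with 31.8 to 110.2 TPM in lung and at most 1.15 TPM elsewhere.

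Several entries among the 20 largest differences were not on any list. CMIP1 (ciliary microtubule inner protein 1) had 525 to 1256 TPM in lung with a median of 783, and at most 0.22 TPM in another library. UBX10 (a protein that helps transport into cilia) had 200.2 to 427 TPM in lung and at most 1.47 TPM elsewhere. CFA90, named as a cilia and flagella associated protein, had 247 to 948 TPM in lung and at most 10.3 TPM elsewhere. TTL10 (an enzyme of the family that modifies tubulin) had 189 to 622 TPM in lung and at most 2.41 TPM elsewhere. For all 4, the lung libraries stood apart from every other library. The same held for GPX2 (a glutathione peroxidase of epithelia), with 225 to 1215 TPM in lung and at most 5.71 TPM elsewhere, and for MK15 (a kinase linked to cilia), with 337 to 1299 TPM in lung and at most 16.2 TPM elsewhere.

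Keratins and junction proteins of the epithelium were higher than in each tissue in 10 of 12 measured members, and in 7 after median-ratio scaling. The shares of all entries were 11.9% by TPM and 6.27% after scaling. K1C19 (keratin 19) had 433 to 1469.6 TPM in lung with a median of 792, against 55.1 to 314 TPM in kidney. CLD3 (claudin 3, a tight junction protein) had 525 to 1209 TPM with a median of 759, against at most 89.5 TPM in liver. Both were separate from other tissues. P63, the transcription factor of basal cells, was low and uneven, from 0.668 to 30.4 TPM with a median of 3.63, and overlapped with the liver range of 0.306 to 3.71 TPM; its call was lost after scaling and without S0309, S0355 or S0377. K2C8 and K1C18, the keratins of simple epithelia, were not called above liver.

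Of 11 measured genes of ion and water transport, 3 were higher than in each tissue, against 11.9% of all entries, and 2 after median-ratio scaling, against 6.27%. The 3 were CFTR (the chloride channel altered in cystic fibrosis), S26A9 (an anion transporter) and SCNNA (the alpha subunit of the epithelial sodium channel, through which the lung takes up fluid). CFTR had 3.71 to 16.5 TPM in lung with a median of 10.4 and at most 2.02 TPM elsewhere, so it stood apart at a low level. SCNNA had 66.8 to 187 TPM in lung with a median of 113, and 21.8 to 196 TPM in kidney; the ranges overlapped, and the log2 difference of 1.21 ± 0.21 (SE) was 0.67 after scaling. The beta and gamma subunits SCNNB and SCNNG were not called above kidney, where SCNNG had a median of 62.2 TPM against 61.5 TPM in lung.

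Transcription factors of lung development and epithelium were higher than in each tissue in 10 of 24 measured members, against 11.9% of all entries. After median-ratio scaling 9 of them were, against 6.27%. NKX21, which specifies lung and thyroid in the embryo, had 105 to 261 TPM in lung with a median of 206 and was listed at 0 in all 39 other libraries used. SOX2, a factor of the conducting airways, had 7.02 to 45.8 TPM with a median of 24.9 and at most 0.104 TPM elsewhere. TBX4, a factor of the lung mesenchyme, had 2.04 to 21.7 TPM with a median of 7.51 and at most 0.554 TPM elsewhere. No value of these 3 genes was shared with another tissue.

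FOXA1 and FOXA2, factors common to organs of the gut tube, overlapped with liver. FOXA1 had 14.7 to 66.5 TPM in lung and 6 to 23.1 TPM in liver, and its log2 difference of 1.38 ± 0.16 (SE) fell to 0.26 after scaling. FOXA2 had 16.7 to 42.2 TPM in lung and 10.6 to 25 TPM in liver, a difference of 0.95 ± 0.12 that missed the least size of 1. TBX5, known for its role in heart and lung, was listed at 0 in all kidney and spleen libraries and had a median of 4.05 TPM in lung against 11.3 TPM in heart, a log2 difference of -1.13 ± 0.19 (SE) that passed as lower.

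**Figure D3:**
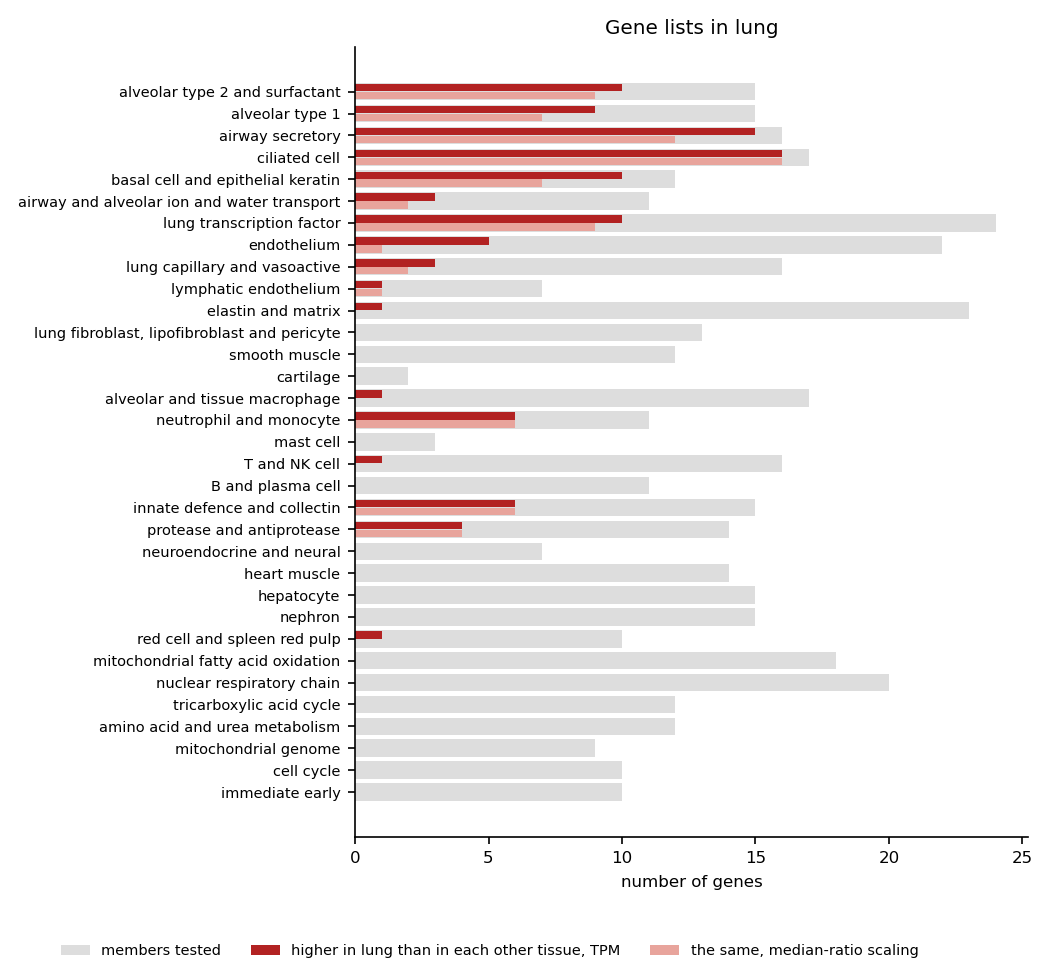
Number of measured genes in each list (grey) and of those called higher in lung than in each other tissue, by TPM (dark red) and after median-ratio scaling (light red). Ciliated and airway secretory genes come closest to the full length of their lists, with 16 of 17 and 15 of 16, and the matrix, muscle and metabolic lists have at most 1 such gene.

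Of 22 measured members of the endothelium list, 5 were higher than in each tissue, against 11.9% of all entries. After median-ratio scaling NOS3 was the only one, against 6.27% of all entries. By TPM, 3 to 6 were called when 1 animal was left out. Against heart, 10 of the 22 were higher in lung and 1 lower by TPM, against 49.3% and 6.66% of all entries. After scaling 3 were higher than in heart and 10 lower, against 18.5% and 17.2%. NOS3 (endothelial nitric oxide synthase) had 44.2 to 121 TPM in lung with a median of 77.4, against at most 38 TPM in any other library. VWF (von Willebrand factor, a clotting protein stored in endothelium) had 56 to 364 TPM in lung and 37.1 to 149 TPM in heart. The values of VWF overlapped, and its difference from heart of 1.101 ± 0.30 (log2 ± SE) was -0.14 after scaling and lost its call without S0349, S0355 or S0385. CLD5 (the tight junction claudin of endothelium) ranged from 29.1 to 285 TPM in lung and lost its call after scaling and without S0235, S0242, S0355 or S0385. EPAS1 and TM100 also lost theirs after scaling.

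Of 16 measured genes that act on blood vessels, ACE, EDN1 and PRAX were higher in lung than in each tissue and AGTR1 was lower. For all entries the shares were 11.9% higher and 0.149% lower. After median-ratio scaling 2 of the 16 were higher and 1 lower, against 6.27% and 0.695% of all entries. ACE (angiotensin-converting enzyme, carried by lung capillaries) had 109 to 259 TPM in lung with a median of 182, and kidney reached 153 TPM. Its difference from kidney of 1.27 ± 0.20 (log2 ± SE) was 0.73 after scaling. AGTR1, the receptor for the angiotensin that ACE makes, had 0.801 to 25 TPM in lung with a median of 5.95, against medians of 14.3 TPM in heart, 20 TPM in kidney, 35.3 TPM in liver and 60.9 TPM in spleen. The AGTR1 values overlapped with those of each other tissue, and the call was lost without S0309 or S0377. PLVAP, the protein of the diaphragms in fenestrated vessels, had 6.47 to 113 TPM in lung, lower than in spleen at 722 to 2316 TPM and than in kidney at 80.3 to 162 TPM, where the ranges overlapped.

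Matrix, fibroblast and muscle genes were rarely highest in lung. Of 23 measured matrix genes, ELN was the only gene called higher than in each tissue, and it was not after scaling. For all entries the shares were 11.9% and 6.27%. ELN (elastin, the core of elastic fibres) ranged from 10.9 to 389.9 TPM among the lungs with a median of 75, against 16.5 to 56 TPM in spleen. The lowest lung was thus below all spleens, and the log2 difference of 1.51 ± 0.45 (SE) from spleen became 0.86 after scaling. FBLN5 (fibulin 5, which helps assemble elastic fibres) was lower in lung, with a median of 15.2 TPM against 205 in spleen, 125 in kidney and 68.3 in heart. None of 13 measured genes of fibroblasts and pericytes was higher or lower than in each tissue.

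Smooth muscle genes placed lung below spleen. All 12 measured members were lower in lung than in spleen by TPM and after median-ratio scaling, against 9.56% of all entries, with a median difference of -3.21 (log2). MYH11 (smooth muscle myosin) had 26 to 148 TPM in lung with a median of 74.7, and 498 to 1244 TPM in spleen. ACTH (the gamma actin of visceral smooth muscle) had 94.5 to 589 TPM in lung and 418 to 2141 TPM in spleen, but at most 43.3 TPM in any heart, kidney or liver library. Lung thus stood between spleen and the other tissues for both genes, although the ACTH values of lung and spleen overlapped.

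Of 11 measured genes of neutrophils and monocytes, 6 were higher in lung than in each tissue under either scaling. For all entries the share was 11.9% by TPM and 6.27% after median-ratio scaling. S10A8 and S10A9 form calprotectin, a calcium- and zinc-binding protein of these cells. S10A9 had 133 to 699 TPM in lung with a median of 360.1, against at most 77.9 TPM elsewhere, in spleen. S10AC (a related protein of neutrophils) had 275.6 to 1074 TPM with a median of 736 and at most 33.4 TPM elsewhere, in kidney. LYSC3 (a pig lysozyme) had 33.6 to 1842 TPM in lung with a median of 667, and at most 24.9 TPM elsewhere, in spleen.

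Within the same list, the receptors did not follow the same order. CSF3R, the receptor for the growth factor of neutrophils, was higher in lung, at 1.41 to 26.2 TPM with a median of 5.57 and at most 2.02 TPM elsewhere, so that only its low end overlapped. CXCR2, the neutrophil receptor for chemokines of the interleukin 8 type, was lower in lung than in spleen, at 1.09 to 7.54 TPM against 53.7 to 128 TPM. IL8, the ligand of CXCR2, had 2.32 to 44 TPM in lung with a median of 11.2 and at most 2.28 TPM elsewhere. The lung values of IL8 lay just above the highest other library, and those of CXCR2 lay far below all spleens.

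Of 17 measured macrophage genes, 10 were lower in lung than in spleen by TPM and after median-ratio scaling, against 9.56% and 15.8% of all entries. By TPM 12 were higher in lung than in heart, 14 than in kidney and 11 than in liver, against 49.3%, 27.0% and 49.1% of all entries. After scaling these counts were 5, 13 and 5, against 18.5%, 14.6% and 22.1%. MARCO (a scavenger receptor of alveolar macrophages) had 3.64 to 166 TPM in lung with a median of 33.1, against 26.9 TPM in liver and 17.5 TPM in spleen. MARCO overlapped with both, and the log2 differences of 0.56 ± 0.45 and 0.79 ± 0.45 (SE) did not pass. C1QB (a chain of complement C1q made by tissue macrophages) had 48.4 to 589.9 TPM in lung and 5663 to 9723 TPM in spleen. VSIG4 was called higher than in each tissue by TPM, with a median of 23.2 TPM, and lost the call after scaling.

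Lymphocyte genes were mostly lower in lung than in spleen. Of 16 measured genes of T and NK cells, 13 were lower than in spleen, or 15 after scaling, and of 11 genes of B and plasma cells 10 were, or 11 after scaling. Of the T and NK cell genes 14 were higher in lung than in heart, 8 than in kidney and 12 than in liver, or 10, 4 and 8 after scaling. Of the B and plasma cell genes the same counts were 8, 6 and 7, or 6, 6 and 5 after scaling. Over all entries, 9.56% were lower than in spleen, or 15.8% after scaling. The shares of all entries higher than in heart, kidney and liver were 49.3%, 27.0% and 49.1%. After scaling they were 18.5%, 14.6% and 22.1%. CD3E had 3.39 to 36.1 TPM in lung with a median of 11.3, against 59.8 TPM in spleen. GRAB (granzyme B) was the only member higher than in each tissue, at 8.57 to 16.8 TPM, and it overlapped with kidney and lost the call after scaling. IGM (the heavy chain of immunoglobulin M) had a median of 361 TPM in lung and 23749.7 TPM in spleen. IGJ, the chain that joins secreted IgA and IgM, had 60.7 to 1345 TPM in lung with a median of 282, against medians of 1622 TPM in spleen and 31 TPM in kidney, and at most 14.6 TPM in heart and liver.

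Innate defence and protease genes were higher than in each tissue in 6 of 15 and 4 of 14 measured members under either scaling. For all entries the share was 11.9% by TPM and 6.27% after median-ratio scaling. CXL17 (a chemokine of mucosal surfaces) was even among the lungs at 277 to 559 TPM, with a median of 334 and at most 3.73 TPM elsewhere. DUOX2, an oxidase that supplies hydrogen peroxide to the airway surface, had 5.38 to 83.1 TPM in lung with a median of 20.2, and spleen reached 14.1 TPM. NGAL (lipocalin 2, which binds bacterial iron carriers) had 72.2 to 392 TPM with a median of 236, and 1 kidney reached 88.9 TPM. PRSS8 (prostasin, a protease that activates the sodium channel) had 107 to 231 TPM in lung with a median of 150.2 and 29.2 to 121 TPM in kidney. Of these, only CXL17 was separate from every library of the other tissues.

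Few entries were lower in lung than in each other tissue, and all 21 of them were also called after median-ratio scaling. CP27A (the sterol hydroxylase of bile acid synthesis, which macrophages also hold) had the largest difference. It had 1.08 to 8.55 TPM in lung with a median of 3.96, against medians of 15.9 in heart, 55.5 in kidney, 1554 in liver and 104 in spleen. The lung was 4.52 ± 0.20 (log2, SE) below the mean of the others, although its range met that of heart, where 1 library had 3.69 TPM.

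ADPRS, a hydrolase that removes ADP-ribose from proteins, was listed at 0 in 9 of the lung libraries and at 5.44 TPM in that of S0385. In the other tissues it ranged from 7.55 to 29.8 TPM and was never at 0. CADH2 (N-cadherin, an adhesion protein of muscle and liver cells) had 0.32 to 0.828 TPM in lung and at least 1.35 TPM in every other library. MLIP (a protein of the nuclear envelope in muscle) had 0 to 0.337 TPM in lung and at least 0.735 TPM elsewhere.

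TPMT (thiopurine methyltransferase, which inactivates thiopurine drugs) was also below every other library, at 0.855 to 4.32 TPM against 5.72 to 57.2 TPM. PPR3C (a subunit that directs a phosphatase to glycogen) had 1.95 to 6.76 TPM in lung with a median of 3.61, against medians of 192 in heart, 9.16 in kidney, 92.3 in liver and 25.8 in spleen. ADT1 (the adenine nucleotide carrier of muscle mitochondria) had 12.1 to 25.6 TPM in lung, below medians of 1787, 46.5, 202 and 58.1 in the same order. The highest lung of each gene exceeded only the low end of the kidney range, which began at 5.73 TPM for PPR3C and 22.1 TPM for ADT1.

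Other members were GRB14 (an adaptor that restrains the insulin receptor), at 0.767 to 2.62 TPM in lung against medians of 38.5 in heart and 4.6 in spleen, and PECR (a peroxisomal enzyme of fatty acid synthesis), at 3.77 to 12.4 TPM against medians of 20.7 in heart and 299.8 in liver. CO7 (complement component 7) had 2.72 to 20.3 TPM in lung with a median of 11.6, and a median of 866 TPM in spleen. PTH1R (the receptor for parathyroid hormone) had 0.887 to 11.9 TPM in lung and 153 to 526 TPM in kidney. Its difference from heart of -1.01 ± 0.23 (log2 ± SE) was the smallest of its 4, and the call was lost without S0235, S0276, S0309 or S0326.

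**Figure D4:**
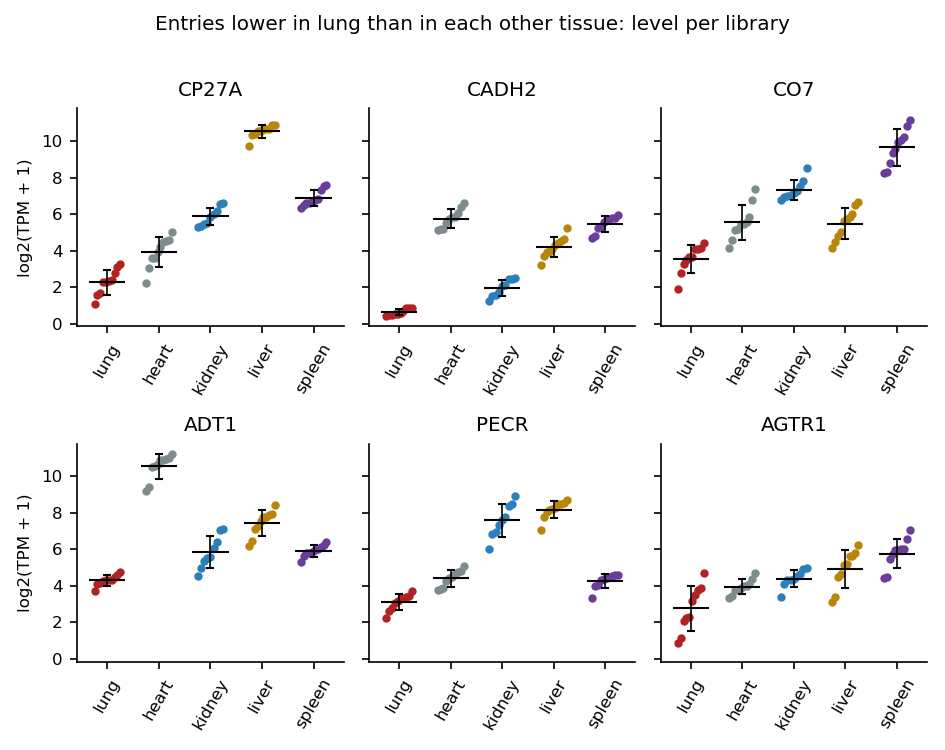
Expression of 6 genes that were lower in lung than in each other tissue, as log2(TPM + 1), with 1 point per library and the mean and SD of each tissue in black. The lung points of CADH2 lie below all others, while those of AGTR1 overlap with every tissue.

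Against heart, lung was lower in the contractile and mitochondrial genes. All 14 measured heart muscle genes were lower in lung, against 6.66% of all entries, with a median difference of -8.92 (log2). MLRV (ventricular myosin light chain) had a median of 43791 TPM in heart and 1.23 TPM in lung, where it ranged from 0 to 62.8 TPM. COX8B (a cytochrome oxidase subunit of muscle) had 1874 to 4464 TPM in heart and at most 0.225 TPM in lung.

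Within this list, 10 of the 14 genes were higher in lung than in liver, 9 than in spleen and 4 than in kidney. After median-ratio scaling these counts were 7, 8 and 3. Of all entries 49.1%, 24.4% and 27.0% were higher, or 22.1%, 14.9% and 14.6% after scaling. By TPM 2 of the 14 genes were lower than in spleen and 1 than in kidney. The sarcomere genes TNNI3 and TITIN were higher in lung than in kidney, liver and spleen. TNNI3 (cardiac troponin I) had 28.2 to 184 TPM in lung with a median of 73.2, against medians of 6549.7 TPM in heart, 5.04 in kidney, 1.25 in liver and 1.17 in spleen. TITIN (the giant spring protein of the sarcomere) had 5.82 to 52.7 TPM in lung with a median of 32.3, against 131 TPM in heart and at most 0.874 TPM in kidney, liver and spleen. All 10 lungs stood above those 3 tissues for both genes, with log2 differences of 3.49 to 4.72 for TNNI3 and 4.12 to 4.46 for TITIN. ANF (atrial natriuretic peptide) was at 0 to 0.416 TPM in lung and at 38.5 to 1147 TPM in heart. The summed level of the list was 87.3 to 321 TPM in lung, which overlapped with kidney at 61.2 to 293 TPM and spleen at 68.8 to 319 TPM, and lay below heart at 33852 to 108197 TPM.

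Respiratory chain genes encoded in the nucleus were lower in lung than in heart in 20 of 20 members, with a median difference of -2.12 (log2). Against kidney 5 were lower and against liver 2, but 14 and 16 after median-ratio scaling. None was called against spleen. Of all entries, 6.66% were lower in lung than in heart, 8.47% than in kidney and 8.94% than in liver. After scaling these shares were 17.2%, 12.8% and 18.1%. The 2 of 20 against liver were thus near the share of all entries by TPM. NDUA4 (a subunit found with cytochrome oxidase) had 92.3 to 154 TPM in lung and 941 to 3359 TPM in heart. Of 18 measured genes of mitochondrial fatty acid oxidation, 10 were lower than in heart and 12 than in liver, or 17 and 16 after scaling. ACADM (medium-chain acyl-CoA dehydrogenase) had a median of 23.9 TPM in lung, 166 in heart, 54.4 in kidney, 147 in liver and 23.9 in spleen. Of 12 genes of the tricarboxylic acid cycle, 9 were lower than in heart, or 12 after scaling.

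Transcripts of the mitochondrial genome took 6.44% ± 3.90 (SD, n = 10) of the TPM in lung. This was lower than in heart, at 37.4%, and kidney, at 28.3%, in every animal (exact paired permutation test, 2-sided, p = 0.00195 for 10 pairs and 0.00391 for 9). In liver the share was 10.03% ± 5.89 (SD, n = 10), with lung lower in 8 of 10 animals and p = 0.0332 by the same exact test, and in spleen it was 3.63% ± 0.745 (SD, n = 10), with lung higher in 7 of 10 animals and p = 0.0195. The difference from spleen, 2.81 percentage points, was 5.43 in ET-type and 0.188 in L-type animals and 1.84 without S0276; that gap between types was not tested. The difference from liver rested on the animals used: with 1 animal left out, p rose to between 0.0547 and 0.0664 for 7 of the 10. COX1, a subunit of cytochrome oxidase, was still the most abundant gene in lung by mean, with 15122 to 75620.5 TPM. CBR2, UTER and COX3 followed, then LORF2 (a retrotransposon entry that pools 2412 transcripts), EF1A1 (a translation factor), RLA1, TYB10, PSPC and NU4M.

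Against kidney, 14 of 15 nephron genes were lower in lung, compared with 8.47% of all entries, with a median difference of -5.62 (log2). PCKGC (the enzyme that commits to glucose synthesis) had 0.232 to 0.579 TPM in lung, 344 to 2203 TPM in kidney and 188 to 1688 TPM in liver. AADAT (an aminotransferase of tryptophan and lysine breakdown) had 0.235 to 0.527 TPM in lung and 360.2 to 2423 TPM in kidney. In heart and spleen neither gene exceeded 2.25 TPM. The exception in the list was S12A3, an entry that pools the thiazide-sensitive transporter with relatives.

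Against liver, all 15 hepatocyte genes and 11 of 12 genes of amino acid and urea metabolism were lower in lung. Of all entries 8.94% were lower. ALBU (albumin) had 0.657 to 16.7 TPM in lung and 55175 to 174596 TPM in liver, a log2 difference of -14.52 ± 0.42 (SE). FIBB (the beta chain of fibrinogen) had 0.299 to 2.68 TPM in lung and 5095 to 25918 TPM in liver. APOE (apolipoprotein E) was lower than in liver but higher than in heart, kidney and spleen, at 275.99 to 2402 TPM in lung against at most 410.1 TPM in a library of those 3 tissues. The exception among the amino acid genes was GLNA (glutamine synthetase), which was higher in lung than in liver, at 296 to 758 TPM against 5.44 to 142 TPM.

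Against spleen, 8 of 10 genes of red cells and red pulp were lower in lung, compared with 9.56% of all entries. HBB (haemoglobin beta, pooled with its relatives) had 5.11 to 503 TPM in lung with a median of 76.2, and 3093 to 216850.0 TPM in spleen. ITAD (integrin alpha D, carried by red pulp macrophages) had 0.723 to 1.74 TPM in lung and 482 to 754 TPM in spleen. TAL1, a factor of blood and endothelium, went the other way, at 9.13 to 183 TPM in lung against 5.45 to 8.86 TPM in spleen. It was called higher than in each tissue, and its call against heart was lost after scaling. Of 10 cell division genes, none was higher than in each tissue. All 10 were higher than in heart, 8 than in liver, 6 than in kidney and 1 than in spleen. After scaling these counts were 4, 6, 3 and 0. The shares of all entries were 49.3%, 49.1%, 27.0% and 24.4% in the same order. They were 18.5%, 22.1%, 14.6% and 14.9% after scaling.

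The lung libraries resembled each other. Pairwise r across features ranged from 0.870 to 0.943. All 10 lay closest to the lung mean, but that mean included each of them, so this is a description and no independent check. The r within other tissues was not set beside these values. Among 1402 entries higher than in each tissue with a lung mean of 10 TPM or more, the median SD over the lungs was 0.44 (log2). RIPK4 (a kinase of epithelial differentiation) was the steadiest of them, at 20.7 to 28 TPM with an SD of 0.13, against 4.86 to 15 TPM in kidney. RFIP1 (a partner of Rab11 in membrane recycling) followed, at 75.9 to 108 TPM with an SD of 0.14.

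The most variable genes of this group differed widely between animals. UPK1B (uroplakin 1b, a membrane protein of urothelium) had 143, 124 and 122 TPM in the lungs of S0242, S0276 and S0349 and 0.633 to 10.3 TPM in the other 7. UPK3B (uroplakin 3b, also known in mesothelium) had 171, 69.8 and 207 TPM in the same 3 lungs and 1.48 to 12.6 TPM in the others. The same 3 libraries were thus high in both, and they include animals of both types. The call of UPK1B was lost without any of these 3 animals.

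CRIS3 (a cysteine-rich secretory protein) had 557 TPM in the lung of S0235 and 1.3 TPM in that of S0276, and SG3A1 was likewise highest in S0235, at 3066 TPM, and lowest in S0276, at 53.5 TPM. GRD2I (a scaffold protein known from cerebellum) was at 36 to 83.3 TPM in 6 lungs and at 0.667 to 1.45 TPM in 4. Its values had no library between these ranges. The summed level of ciliated cell genes varied less, from 1354 to 2888 TPM.

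**Figure D5:**
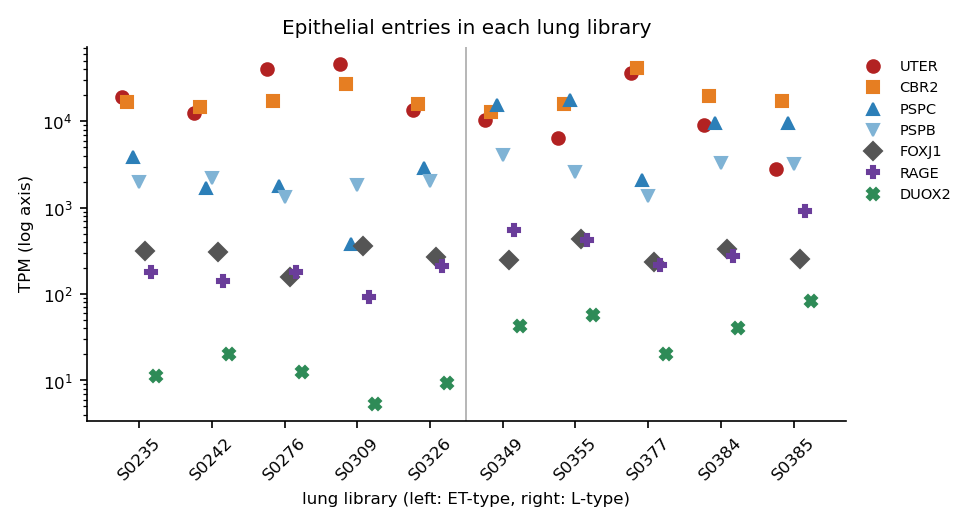
TPM of 7 epithelial genes in each of the 10 lung libraries on a log axis, with 1 point per gene and library, ET-type animals on the left and L-type animals on the right. PSPC and DUOX2 are higher in most L-type lungs, and FOXJ1 stays between 159 and 439.8 TPM.

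The lung difference depended on the type of the animal for a small share of features. The difference between lung and the mean of the other tissues was itself compared between ET-type and L-type animals, and 250 features (0.761%) had a limma adjusted p below 0.05. It was smaller in ET-type animals for 179 of them (0.545%) and larger for 71 (0.216%). Among entries, 78 (0.553%) passed, 69 (0.489%) with a smaller and 9 (0.0638%) with a larger difference in ET-type animals. The number was 450 without S0242, 401 without S0377, 159 without S0349, 146 without S0384, 137 without S0355 and 134 without S0385, and 177 to 298 without another animal. With the kidney library of S0235 kept it was 153.

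The oxidase system of the airway held both of the smallest p-values and 3 of the 10 smallest. DUOX2 was at 11.2, 20.2, 12.7, 5.38 and 9.43 TPM in the ET-type lungs and at 42.2, 57, 20.2, 40.8 and 83.1 TPM in the L-type lungs. The highest ET-type value equalled the lowest L-type value to 3 digits, and the others were separate. The lung difference of DUOX2 was 2.09 ± 0.39 (log2, SE) smaller in ET-type animals, where it was 2.48, than in L-type animals, where it was 4.57 (limma adjusted p = 0.00297). DOXA2, the factor that brings DUOX2 to the cell surface, had 2.6 to 5.54 TPM in ET-type and 8.51 to 26.7 TPM in L-type lungs, an interaction of -1.65 ± 0.21 (limma adjusted p = 1.04e-05). DUOX1, the second oxidase, had 0.936 to 4.13 TPM and 4.74 to 9.17 TPM, an interaction of -1.19 ± 0.20 (limma adjusted p = 0.000656). The types did not overlap for DOXA2 and DUOX1, and all 3 calls stood with any animal left out.

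Some surfactant genes differed too. PSPC was at 3913, 1679.8, 1778, 377.3 and 2886 TPM in the ET-type lungs and at 15609, 17806, 2121, 9639.7 and 9668 TPM in the L-type lungs. Only the L-type lung of S0377 lay within the ET-type range, and the interaction was -2.41 ± 0.41 (log2, SE; limma adjusted p = 0.000886). ABCA3 was at 22.1 to 30.3 TPM in ET-type and at 49.7 to 99.3 TPM in L-type lungs, without overlap, with an interaction of -1.24 ± 0.25 (limma adjusted p = 0.0057). Both calls stood with any animal left out. PCAT1 (the acyltransferase that makes surfactant lipid) had 4.55 to 13.6 TPM and 16.7 to 89.8 TPM, and its interaction of -1.54 ± 0.39 (limma adjusted p = 0.039) was lost without any of 7 animals. In all, 3 of 15 genes of the type 2 list passed, each with the smaller difference in ET-type animals, against 0.489% of all entries.

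RAGE and AQP5, of type 1 cells, passed in the same direction, with interactions of -1.41 ± 0.33 and -1.28 ± 0.29 (log2 ± SE; limma adjusted p = 0.0242 and 0.0155). RAGE had 91.5 to 211 TPM in ET-type and 217 to 911 TPM in L-type lungs, without overlap. Its call was lost without S0242, S0309, S0349, S0355 or S0385, and that of AQP5 without S0276, S0355 or S0385. UTER went the opposite way, with 12459 to 46154 TPM in ET-type and 2832 to 36495 TPM in L-type lungs. These ranges overlapped widely, and the interaction of 1.56 ± 0.38 (limma adjusted p = 0.0289) was lost after median-ratio scaling, at 0.0629, and without any of 7 animals.

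Also among the 10 smallest p-values were CR2 (the complement receptor of B cells and follicular dendritic cells) and CD33 (a sialic acid receptor of myeloid cells). CR2 had 0.589 to 2.47 TPM in ET-type and 7.77 to 22.6 TPM in L-type lungs, and CD33 had 8.68 to 15.9 TPM and 18.8 to 35.8 TPM. Both were separate between types, with interactions of -2.38 ± 0.43 and -1.37 ± 0.25 (log2 ± SE; limma adjusted p = 0.00201 and 0.00202). With the left-out kidney library included, the adjusted p of CR2 was 0.0839 by limma. GALP (galanin-like peptide) had 0.373 to 2.38 TPM and 3.11 to 26.3 TPM, an interaction of -2.31 ± 0.41 (limma adjusted p = 0.00157). KCNN4 (a potassium channel), NPAS1 (a transcription factor) and CD20B (a relative of the cell cycle protein Cdc20), all at 10.9 TPM or less in lung, completed the 10 smallest p-values, with interactions of -1.34, -1.18 and -0.88. CSF3R passed as well, with 1.41 to 8.67 TPM in ET-type and 4.3 to 26.2 TPM in L-type lungs, which overlapped, and an interaction of -1.30 ± 0.30 (limma adjusted p = 0.0227) that was lost without S0235, S0309, S0326, S0349, S0355 or S0385.

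Some summed levels also differed in range between the types in the same lungs, with no test made. The summed level of 14 heart muscle genes was 87.3 to 178 TPM in ET-type and 184 to 321 TPM in L-type lungs, without overlap. The summed TPM of the mitochondrial genome was 41917 to 148147 in ET-type and 31195 to 45406 in L-type lungs. The summed TPM of 17 macrophage genes was 578 to 1925 and 1757 to 5297, and both of these overlapped at their ends. The summed TPM of 16 airway secretory genes, at 33337 to 82780 and 24133 to 87757, overlapped throughout. Their part in the type differences was not tested. With a pseudocount of 0.1 in place of 1, 52 features passed, and of the genes named here DOXA2, GALP, CR2 and CD33 were the only ones called.

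Transcripts without a Swiss-Prot match were also examined, 18750 in all. Of these 2161 were higher in lung than in each tissue and 3 were lower. Transcript names give the tissue whose assembly they came from, and 71.9% of the 2161 were named for the lung assembly, against 25.1% of all those tested. A transcript assembled from lung had to be present there, so these shares are a description and no independent check. The effect of the assembly on the count of 2161 was not tested.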

How the data were processed

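RNA was measured in 10 animals and 5 tissues. Per the labels' protocols, total RNA was extracted with TRIzol and made into libraries with the TruSeq Stranded mRNA LT kit. Trimmomatic 0.36, Salmon 1.10.0 and the build Sscrofa11.1 are named in the submitters' processing notes. The authors deposited TPM for 57085 assembled transcripts, with a Swiss-Prot match for 36484 of them. Read counts were not used, so depth and counting error are unknown and no count model was fitted. Matches can be to a relative of the pig gene: the median identity was 91.7%, but 62.4% for UTER, and close relatives are pooled within an entry.

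TPM was summed per Swiss-Prot entry, and unmatched transcripts were kept singly. Both, together called features, with a highest tissue mean of at least 1 TPM were kept, and log2(TPM + 1) was fitted with limma 3.58.1 (trend) in R 4.3.3 with terms for tissue and type, on 49 libraries. Calls needed a Benjamini-Hochberg adjusted p below 0.05 and a log2 difference of at least 1. The type difference was an interaction in the same libraries. Shares per library were tested with 2-sided exact permutation tests over animals. The fit was tested on simulated data. Python 3.11.15, pandas 2.3.3, numpy 2.4.6, scipy 1.17.1 and matplotlib 3.10.9 were used.

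The animal number pairs the libraries, since each animal gave all tissues. Deviations from the group means had a mean r of 0.244 over 39 same-animal pairs of a lung and another library, 37 of them above 0.1, and of -0.0609 over 156 pairs of different animals of one type. The main limma fit had no term for the animal, so it left this pairing out and treated the libraries as separate. Its p-values reflect the spread of libraries around their group means, pooled over all tissues. The exact permutation tests used differences within animals.

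The members and the 33 gene lists (501 symbols, 451 matched) were chosen with earlier results of these data known. Genes were named by rule: the 20 highest and 15 lowest differences among genes called against each tissue, the 5 extremes of each comparison in each direction, list members, the 10 most abundant, the 10 smallest type p-values and the 5 most and least variable. Alternatives were another pseudocount, filters, scalings, the replicate block, the left-out kidney library, single transcripts and leaving out each animal.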

Additional observations from a re-analysis of the deposited data

Results flagged for a closer look

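In 6 of 134 genes tested, those singled out by the naming rule beyond list membership, 1 lung library stood apart from the other 9 by the gap to its nearest neighbour (Dixon's test). Chance flags about 1 group in 20. The lung of S0276 was lowest for CP4B1, at 774 TPM, for CCD40, at 31.8 TPM, and for SOX2, at 7.02 TPM. The lung of S0309 was lowest for S10A9, at 133 TPM, and that of S0326 was lowest for NGAL, at 72.2 TPM. The lung of S0385 was highest for ADPRS, at 5.44 TPM, with the other 9 at 0.

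The lung difference differed between the animal types for 17 of the named genes by the limma interaction test. Some of these genes were named because their p-values in this same test were among the smallest. The count of 17 was thus partly set by the naming rule, and is a description and no independent check. Of all 14105 entries tested, 78 (0.553%) passed. The lung difference was larger in ET-type animals for UTER, by 1.56 (log2). The interaction, ET-type minus L-type, was -2.41 for PSPC, -1.24 for ABCA3, -1.54 for PCAT1, -1.41 for RAGE and -1.28 for AQP5. It was -2.09 for DUOX2, -1.19 for DUOX1 and -1.65 for DOXA2. It was -1.30 for CSF3R, -2.38 for CR2 and -1.37 for CD33. It was -1.34 for KCNN4, -1.18 for NPAS1, -2.31 for GALP, -0.88 for CD20B and -2.14 for LY6H. The calls of UTER, RAGE, AQP5, CSF3R, LY6H and PCAT1 were each lost without 1 of several animals. After median-ratio scaling 2 of the 17 calls were lost, among them that of UTER. With mitochondrially encoded proteins left out 5 were lost, with the left-out kidney library kept 4, and with a pseudocount of 0.1 13.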

How the results depend on the processing

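The 3837 higher and 24 lower features became 2105 and 137 with median-ratio scaling, 2034 and 155 with quantile normalisation, and 8430 and 81 by adjusted p alone. The lower count was 64 with a pseudocount of 0.1 and 41 over single transcripts. Against heart, higher and lower counts were 5945 and 4127 with median-ratio scaling, 5034 and 4862 with quantile normalisation, and 22901 and 2770 by adjusted p alone, and the lower count was 2652 without mitochondrially encoded proteins and 2661 over single transcripts. Against kidney, the higher count was 4078, 4352 and 14756 under those 3 settings and 11349 over single transcripts, and 5040 were lower by adjusted p alone. Against liver the counts were 6522 and 4719, then 5714 and 4897, with 22336 higher by adjusted p alone and 4123 lower over single transcripts. Against spleen they were 5038 and 3620, 4350 and 4252, and 17141 and 3962. The type difference, 250 features, was 52 with a pseudocount of 0.1, 132 with a filter of 5 TPM, 153 with the left-out kidney kept and 134 to 450 without 1 animal. With the animal as a replicate block, 438 features had a type difference and 3856 were higher in lung, 3824 of them shared, with 25 lower; the block moved no other count by over 1.5 times. METK1 reversed to 1.20 (log2) with a pseudocount of 0.1 and COX1 to 0.29 with quantile normalisation; the cause was not tested. The mitochondrial share of lung minus liver ranged from -4.52 to -2.33 percentage points without 1 animal. Without read counts, low values have no counting error.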
